A study of Mus musculus with 4 samples.

Results

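The 10 genes described here encode the MHC class I pathway of the mouse: the classical heavy chains H2-K1 and H2-D1, their light chain B2m, the peptide transporter subunits Tap1 and Tap2, the loading factor Tapbp, the immunoproteasome subunits Psmb8, Psmb9 and Psmb10, and the class I transactivator Nlrc5. They were taken by gene symbol from tables that list 56691 genes, and each symbol had 1 entry. The libraries were poly(A) RNA of Ter119+ cells from bone marrow, with 2 libraries of the genotype Med16 KO and 2 of the genotype Med16 fl/fl, which carries floxed alleles; all 4 have a time label of 3 weeks. Med16 encodes a tail subunit of Mediator, the complex through which transcription factors reach RNA polymerase II, and Ter119 marks cells of the red cell lineage. The sources used here do not give the Cre driver, the strain, the age or the sex of the animals, nor the meaning of the time label. The H2 haplotype is therefore unknown, and class I heavy chain genes differ in sequence between mouse strains. Whether the libraries stand for different animals is not stated in the labels, so p-values cover only how far these libraries vary, and that variation may be technical. By GENCODE M21, 7 of the genes lie on chromosome 17, in or beside the H2 complex, B2m on chromosome 2, and Psmb10 and Nlrc5 on chromosome 8.

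Class I molecules carry short peptides from inside the cell to its surface, where CD8+ T cells read them. The proteasome cuts proteins into peptides, with the subunits encoded by Psmb8, Psmb9 and Psmb10 replacing those encoded by Psmb5, Psmb6 and Psmb7 in immune cells and after interferon. Tap1 and Tap2 form the pump that brings peptides into the endoplasmic reticulum, and tapasin, the product of Tapbp, holds the empty heavy chain and its B2m light chain beside the pump until a peptide binds. NLRC5 reaches class I promoters through factors already bound there, and interferon regulatory factors act through a separate element. Nucleated mouse erythroid precursors carry class I on their surface, at levels that fall as the cells mature.

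RefSeq promoter windows on build GRCm38.p6 were found for 8 of the 10 members, each running from 250 bases before the annotated start to 50 after it. The windows of H2-K1 (chr17:34000298-34000597, minus strand), H2-D1 (chr17:35262844-35263143, plus strand) and B2m (chr2:122147437-122147736, plus strand) are printed because their first matches to the motifs below come in the same order. That of Tap1 (chr17:34187306-34187605, plus strand) is printed because it shares 275 bases with the window of Psmb9 on the other strand. Each reads 5′ to 3′ along its gene, and capitals mark matches on either strand to AANNGAAA, the core bound by interferon regulatory factors, to CCAAT, the box bound by NF-Y, and to TGACG, the half-site bound by the CREB and ATF family.
H2-K1: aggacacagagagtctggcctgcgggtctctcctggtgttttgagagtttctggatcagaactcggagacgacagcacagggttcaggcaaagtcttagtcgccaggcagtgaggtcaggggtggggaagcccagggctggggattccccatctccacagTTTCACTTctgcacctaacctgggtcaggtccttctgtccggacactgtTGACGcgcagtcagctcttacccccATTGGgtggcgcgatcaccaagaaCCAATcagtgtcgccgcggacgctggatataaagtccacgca
H2-D1: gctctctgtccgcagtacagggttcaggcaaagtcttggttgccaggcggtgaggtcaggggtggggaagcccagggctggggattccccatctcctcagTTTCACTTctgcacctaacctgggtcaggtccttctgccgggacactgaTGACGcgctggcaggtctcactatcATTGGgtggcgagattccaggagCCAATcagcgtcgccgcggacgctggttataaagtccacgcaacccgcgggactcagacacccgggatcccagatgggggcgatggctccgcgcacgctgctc
B2m: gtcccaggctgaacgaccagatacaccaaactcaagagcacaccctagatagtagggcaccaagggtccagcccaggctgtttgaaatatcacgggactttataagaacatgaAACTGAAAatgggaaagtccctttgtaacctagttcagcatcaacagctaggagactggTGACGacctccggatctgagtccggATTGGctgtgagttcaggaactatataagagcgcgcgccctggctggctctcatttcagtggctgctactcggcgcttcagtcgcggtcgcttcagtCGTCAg
Tap1: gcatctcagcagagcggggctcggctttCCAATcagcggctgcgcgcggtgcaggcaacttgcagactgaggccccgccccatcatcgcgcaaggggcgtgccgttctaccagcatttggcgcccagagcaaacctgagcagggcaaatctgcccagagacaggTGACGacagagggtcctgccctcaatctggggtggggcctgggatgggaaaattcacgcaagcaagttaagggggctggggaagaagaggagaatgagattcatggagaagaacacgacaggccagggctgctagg

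The windows of H2-K1 and H2-D1 matched at 211 of 239 aligned bases (88.3%). In H2-K1, H2-D1 and B2m the order was the AANNGAAA core, then TGACG, then CCAAT read on the other strand as ATTGG, and TGACG began 25 bases before ATTGG in all 3. The core began 49 bases before TGACG in H2-K1 and H2-D1 and 59 bases before it in B2m. Over the 8 windows, 3 held the core, 6 held CCAAT and 5 held TGACG. Of all 32851 windows of 300 bases in the table, 23.9%, 37.4% and 20.8% held the same motifs, taken in that order. No matches overlapped in the printed windows. The CCAAT and TGACG matches of Tap1 and Psmb9 are the same sites, counted in both windows, so the 8 windows are not independent. A match describes the letters only.

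**Figure D1:**
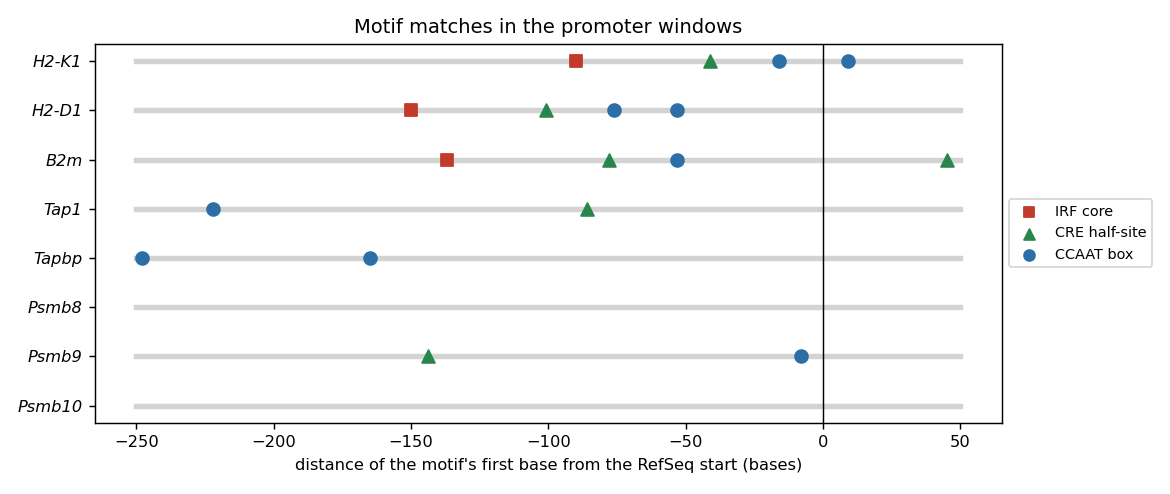
Matches to the 3 motifs in the promoter windows of 8 members, placed by the distance in bases of the match's first base from the RefSeq start (vertical line), with grey bars for the windows. The first matches in H2-K1, H2-D1 and B2m share the order core, half-site, CCAAT box. The windows of Psmb8 and Psmb10 hold none of the 3 motifs.

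Counts assigned to genes ran from 6749196 to 7216333 per library, so 1 count equals 0.139 to 0.148 CPM, the count scaled to a library of fixed size. Reads that did not align made up 2.69% and 3.27% in KO, against 1.05% and 0.826% in fl/fl, and genes with a count numbered 16892 and 16479 in KO, against 18947 and 19016 in fl/fl. The part of these differences in the results was not tested. Med16 had 16 and 30 counts in the KO libraries, against 164 and 127 in the fl/fl libraries, as the labels state. Erythroid genes led the libraries: the 11 erythroid markers analysed summed to 185733 and 196797 CPM in KO, against 195342 and 195419 in fl/fl, with 3 called higher and 7 lower. All levels below are CPM scaled by the trimmed mean of M-values (TMM), with mean ± SD over n = 2 libraries, and fold changes are log2 of KO over fl/fl with their SE from edgeR's quasi-likelihood test, adjusted over 13052 genes by the Benjamini-Hochberg method.

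All 10 members passed the filter on low counts. Of them 4 were called higher in Med16 KO (H2-K1, H2-D1, Tap2 and Psmb8) and 1 lower (B2m) at an adjusted p under 0.05, and 5 were not past the threshold. When the coefficient of variation was set to 0.2 rather than estimated, no member was called. Of the genes named below from other pathway lists, Pdia3, Calr, Canx, Dpp3, Psme3, Nfyb, Ezh2, Eed, Irf8, Suz12, Cd74 and H2-DMb2 then lost their calls. Over all genes tested, 8.50% were called higher and 9.89% lower, and the counts called in every list below stand against these shares. The members' median log2 fold change was 0.30, against 0.02 over all genes tested, and single values ran from -0.63 to 0.71. In CPM, both KO libraries lay above both fl/fl libraries for 6 members and below them for 1, where 29.4% and 28.2% of all genes tested did the same in the same directions.

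**Figure D2:**
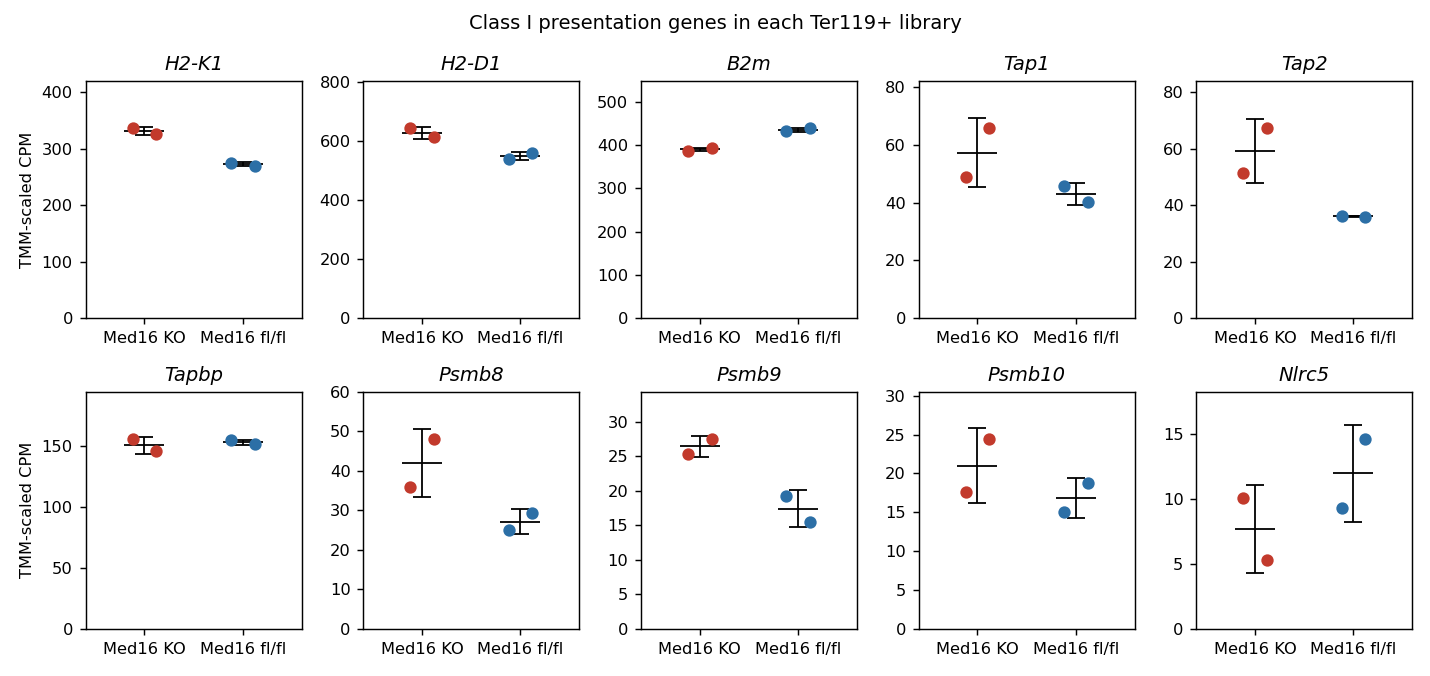
TMM-scaled CPM of the 10 members, with a point for each Ter119+ library, Med16 KO in red on the left and Med16 fl/fl in blue on the right, and lines for the mean ± SD (n = 2 each). Every axis starts at 0. The genotypes do not overlap for H2-K1, H2-D1, B2m, Tap1, Tap2, Psmb8 and Psmb9, and they overlap for Tapbp, Psmb10 and Nlrc5.

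Both classical heavy chain genes were called higher, by small folds that shrank with a GC content offset. H2-K1 stood at 336 and 327 CPM in the KO libraries, against 275 and 270 CPM in the fl/fl libraries, from 2392 and 2222 counts against 1945 and 1864. H2-D1 stood at 643 and 613 CPM in KO, against 539 and 559 CPM in fl/fl. The lower KO library exceeded the higher fl/fl library for both genes, by margins larger than the spread within either genotype. The log2 fold change was 0.28 for H2-K1 (SE 0.06, adjusted p = 0.003) and 0.19 for H2-D1 (SE 0.05, adjusted p = 0.011). The call of H2-K1 ended with the GC content offset (0.14, adjusted p = 0.11) and without fl/fl library 2 (0.26, adjusted p = 0.069). That of H2-D1 ended with the GC content offset (0.01, adjusted p = 0.89), with a transcript length offset (0.11, adjusted p = 0.16) and without fl/fl library 1 (0.15, adjusted p = 0.20). Heavy chain genes have close relatives: 9.6% of the 50-base stretches of H2-K1 transcripts and 12.8% of those of H2-D1 also occur in transcripts of other genes, so reads from them may be split or left unassigned.

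B2m, whose product every class I heavy chain needs to fold, fell by 0.16 on the log2 scale (SE 0.05, adjusted p = 0.045). The call ended under scaling by library size alone (-0.11, adjusted p = 0.19) and without fl/fl library 1 (-0.18, adjusted p = 0.19) or fl/fl library 2 (-0.16, adjusted p = 0.31), and with the GC content offset the value turned to 0.01 (adjusted p = 0.91). Its levels were 387 and 392 CPM in KO, against 432 and 438 CPM in fl/fl. Within a library, H2-K1 and H2-D1 together had 2.53 and 2.40 counts per B2m count in KO, against 1.88 and 1.89 in fl/fl. This ratio does not depend on library scaling, but its parts differ in GC content: with the GC content offset H2-K1 was at 0.14, H2-D1 at 0.01 and B2m at 0.01 on the log2 scale. Its log2 difference of 0.38 had an exact permutation p of 0.333 (two-sided), the smallest that 2 libraries against 2 allow. H2-K1 made up 0.523 and 0.533 counts per H2-D1 count in KO, against 0.511 and 0.484 in fl/fl.

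Of the genes that bring peptides to the heavy chain, Tap2 rose. It stood at 51.3 and 67.2 CPM in KO, against 36.2 and 36.0 CPM in fl/fl (log2 fold change 0.71, SE 0.15, adjusted p = 0.0037), and the KO libraries differed from each other more than the fl/fl libraries did. Its partner Tap1 stood at 48.7 and 65.6 CPM in KO, against 45.7 and 40.2 CPM in fl/fl, and its log2 fold change, 0.41 (SE 0.16), missed the threshold (adjusted p = 0.082). Without KO library 1 it was 0.60 and called (adjusted p = 1.2e-04), and without KO library 2 it was 0.17 and not called. Counts of Tap1 per count of Tap2 were 0.951 and 0.976 in KO, against 1.26 and 1.12 in fl/fl. Tapbp, the most abundant of the 3 per library, had 156 and 146 CPM in KO, against 155 and 152 CPM in fl/fl, and its log2 fold change was -0.03 (SE 0.08, adjusted p = 0.86). It was -0.24 with the GC content offset (adjusted p = 0.051), 0.03 under scaling by library size alone and 0.01 without KO library 2.

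Among the immunoproteasome genes, Psmb8 rose and the other two did not pass the threshold. Psmb8 stood at 35.9 and 48.0 CPM in KO, against 24.9 and 29.3 CPM in fl/fl (log2 fold change 0.63, SE 0.18, adjusted p = 0.024). Its call ended when KO library 2 (0.39), fl/fl library 1 (0.50) or fl/fl library 2 (0.74) was left out. Psmb9 stood at 25.4 and 27.5 CPM in KO, against 19.3 and 15.5 CPM in fl/fl (0.60, SE 0.21, adjusted p = 0.053). Its fold change was 0.65 without KO library 1 and 0.53 without KO library 2. Psmb10 overlapped between genotypes, with 17.6 and 24.4 CPM in KO, against 15.0 and 18.7 CPM in fl/fl (0.32, SE 0.24, adjusted p = 0.41), and its fold change ran from 0.05 without KO library 2 to 0.52 without KO library 1.

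On all 4 libraries, none of the 3 constitutive subunits was called by edgeR with genotype as the only term or by DESeq2. In edgeR, 2 had an unadjusted p under 0.05. With a replicate block added, 1 of the 3 was called higher. Psmb5, the counterpart of Psmb8, had 19.8 and 28.1 CPM in KO, against 17.4 and 12.9 CPM in fl/fl (log2 fold change 0.66, SE 0.24, adjusted p = 0.073). Psmb6, the counterpart of Psmb9, had a log2 fold change of 0.35 (SE 0.16), and Psmb7, that of Psmb10, one of 0.05 (SE 0.10). Summed counts of the immunoproteasome subunits per count of the constitutive ones were 0.469 and 0.606 in KO, against 0.387 and 0.472 in fl/fl. The ranges overlapped, and the log2 difference of 0.32 gave an exact permutation p of 0.667 (two-sided). Psmb8 alone had 1.82 and 1.71 counts per Psmb5 count in KO, against 1.43 and 2.27 in fl/fl.

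Nlrc5 was the scarcest member, with 72 and 36 counts in KO, against 66 and 101 counts in fl/fl. Its level was 10.1 and 5.30 CPM in KO, against 9.34 and 14.6 CPM in fl/fl, and the genotypes overlapped. Its log2 fold change was -0.63 (SE 0.36, adjusted p = 0.25), short of the threshold. It was -1.19 and called without KO library 1 (adjusted p = 0.0027), and -0.26 and -0.29 without KO library 2 or fl/fl library 2.

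Per length, the light chain gene led. Divided by exon length in GENCODE M21, the mean level was 453 CPM per kb in KO and 506 CPM per kb in fl/fl for B2m, 243 and 213 CPM per kb for H2-D1, and 113 and 92.9 CPM per kb for H2-K1. Tapbp followed at 41.6 CPM per kb in KO and 42.4 CPM per kb in fl/fl. Tap1, Tap2, Psmb8, Psmb9 and Psmb10 lay between 7.23 and 15.7 CPM per kb in KO and between 4.75 and 9.89 CPM per kb in fl/fl. Psmb9 had the lowest mean of these in both genotypes. In KO, the library values of Psmb8 and Psmb10 overlapped each other and those of Tap1 and Tap2. In fl/fl, those of Psmb8 overlapped Tap1, and those of Psmb10 overlapped Tap2. Nlrc5 was lowest, at 0.907 CPM per kb in KO and 1.41 CPM per kb in fl/fl. Exon length counts every annotated exon once and may exceed the transcript that is used. The 10 members together took 0.175% and 0.173% of assigned counts in KO, against 0.152% and 0.154% in fl/fl (exact permutation p = 0.333, two-sided, the smallest allowed).

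Fold changes in these libraries moved with GC content, and the members are mostly GC-rich. The transcripts of 9 members had 52.5% to 57.1% GC and that of B2m 41.2%, against a median of 49.6% over 12844 genes tested. From the lowest to the highest GC quintile of all genes tested, the median log2 fold change was -0.19, -0.08, 0.02, 0.12 and 0.23, and the share called higher ran from 2.57% to 17.7%. B2m lay in the lowest quintile, 4 members in the fourth and 5 in the highest. With a GC content offset, H2-K1, H2-D1 and B2m lost their calls as given above, Psmb8 was at 0.54 (adjusted p = 0.065) and Tapbp at -0.24 (adjusted p = 0.051). Tap2 stayed past the threshold at 0.51 (adjusted p = 0.039). The median of the members was then 0.13.

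**Figure D3:**
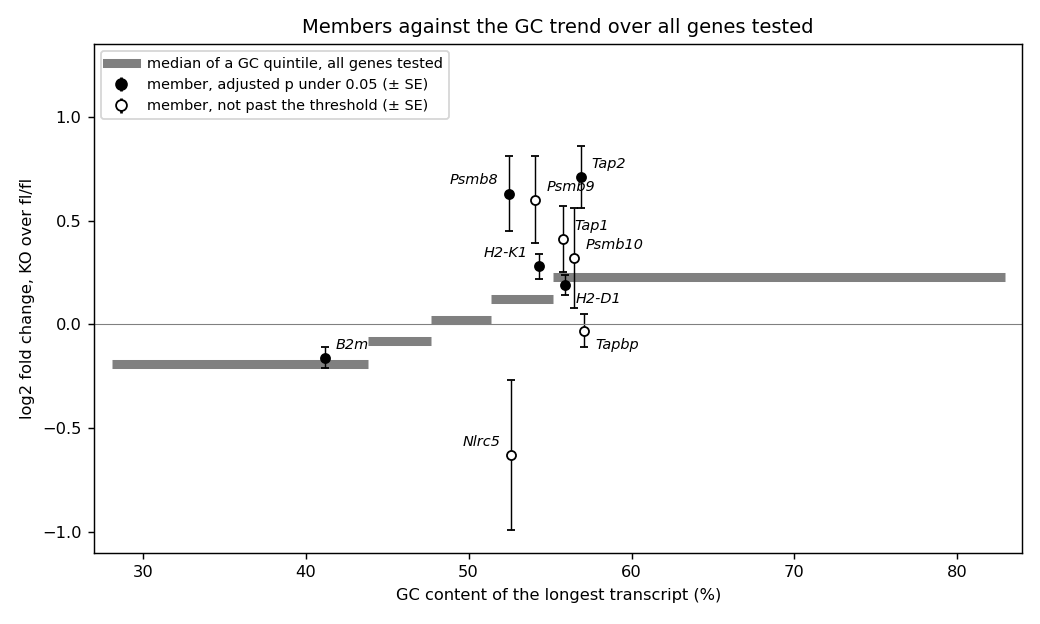
Log2 fold change of KO over fl/fl against the GC content of the longest transcript in GENCODE M21, with points for the 10 members (bars show ± SE, filled where adjusted p was under 0.05) and grey bars for the median of each GC quintile of all genes tested. H2-D1 at 0.19 and B2m at -0.16 lie near the medians of their quintiles, 0.23 and -0.19, and Tap2, Psmb8 and Psmb9 lie above theirs.

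**Figure D4:**
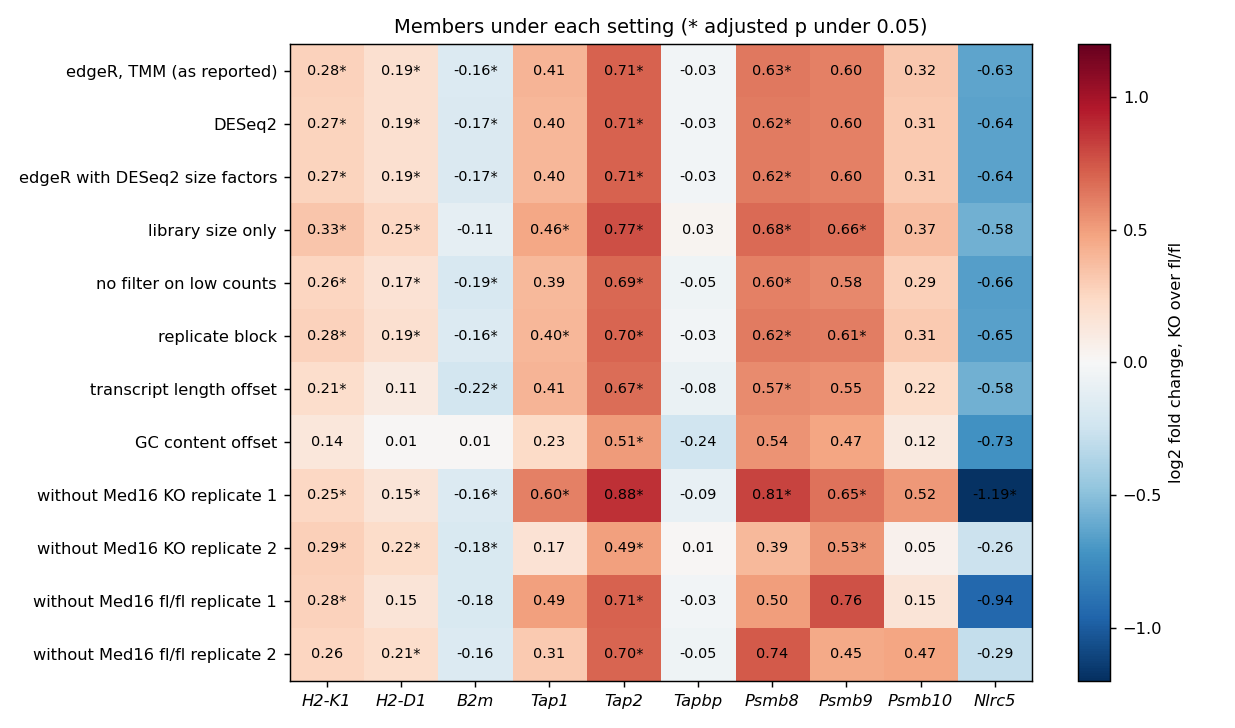
Log2 fold change of KO over fl/fl for each member (columns) under each setting of the analysis (lines), with colour for its size and an asterisk where adjusted p was under 0.05. Tap2 is past the threshold in every line shown, H2-K1 in all but the GC content offset and the fit without fl/fl replicate 2, and Tapbp and Psmb10 in none. The assumed coefficient of variation, under which no member was called, is not drawn.

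Overlapping genes touch several members, and the sources do not say whether counting used the strand. In GENCODE M21, exons of the lncRNA Gm15821 on the opposite strand cover 14.1% of the exon length of Tap2, and exons of the antisense gene Gm20496 cover 14.7% of Psmb8 and 4.4% of Tap2. Both partners had counts of their own: Gm15821 was at 31.7 and 25.2 CPM in KO, against 14.7 and 19.1 CPM in fl/fl (log2 fold change 0.75, adjusted p = 0.023), and Gm20496 was at 28.4 and 40.2 CPM in KO, against 25.1 and 20.7 CPM in fl/fl (0.58, adjusted p = 0.06). Without strand, reads from the shared stretches could belong to either gene. Such reads may have been left out of both counts as ambiguous. For Tapbp, the antisense gene Gm19412 covers 24.9% of the exon length and was at -0.11 on the log2 scale (adjusted p = 0.66). Exons of Zbtb22, on the same strand, cover 4.1% of Tapbp. Tap1 and Psmb9 overlap each other on opposite strands by 212 bases.

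The non-classical class I genes lay, as a list, near all genes tested. Of 24 class I and class I-like genes analysed, 13 were tested, with a median log2 fold change of 0.00, against 0.02 over all genes tested. Of these 13, 1 was called lower and none higher, where 9.89% and 8.50% of all genes tested were called. DESeq2 gave the same counts, and at an unadjusted p under 0.05 in edgeR 2 were lower and none higher. H2-T24 fell to 83.3 and 62.7 CPM in KO, against 145 and 155 CPM in fl/fl (log2 fold change -1.04, SE 0.12, adjusted p = 1.1e-05), and it was called under every alternative. H2-T23, which encodes the Qa-1 molecule recognised by NK cell receptors and which had the highest mean over the 4 libraries (H2-T24 was as high or higher in fl/fl), had 124 and 126 CPM in KO, against 138 and 155 CPM in fl/fl (-0.23, SE 0.09, adjusted p = 0.076).

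Of 10 partners of peptide loading in the endoplasmic reticulum, 2 were called higher and 1 lower, where 8.50% and 9.89% of all genes tested were called. Pdia3, the oxidoreductase ERp57 that pairs with tapasin, rose to 244 and 257 CPM in KO, against 166 and 193 CPM in fl/fl (log2 fold change 0.48, SE 0.08, adjusted p = 4.1e-04). Calr, which encodes the lectin chaperone calreticulin, rose by 0.19 on the log2 scale, a call that ended with the GC offset (0.17), the length offset (0.12) and without fl/fl library 2 (0.10). Canx, which encodes calnexin, fell by 0.29 on the log2 scale, a call that ended with the GC offset (-0.14) and without fl/fl library 1 (-0.28). Of 7 cytosolic peptidases, 2 were called higher and none lower by edgeR and by DESeq2, and none was lower at an unadjusted p under 0.05. Thop1 had a log2 fold change of 0.97 (SE 0.20, adjusted p = 0.0028) and Dpp3 one of 0.67 (SE 0.14, adjusted p = 0.0035), and both were still called with the GC offset, at 0.69 and 0.48. Thop1 lost its call without fl/fl library 2 (0.83) and Dpp3 without fl/fl library 1 (0.64). Npepps, the most abundant of the list, was at -0.02. The most abundant of the 8 proteasome activators and assembly factors, Psme3, was called lower at -0.23 (SE 0.04), and none was called higher by edgeR or DESeq2, with 1 higher at an unadjusted p under 0.05. Psme1, a subunit of the interferon-inducible activator PA28, was at 0.36 (SE 0.12, adjusted p = 0.052) and was chosen after its value was seen.

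**Figure D5:**
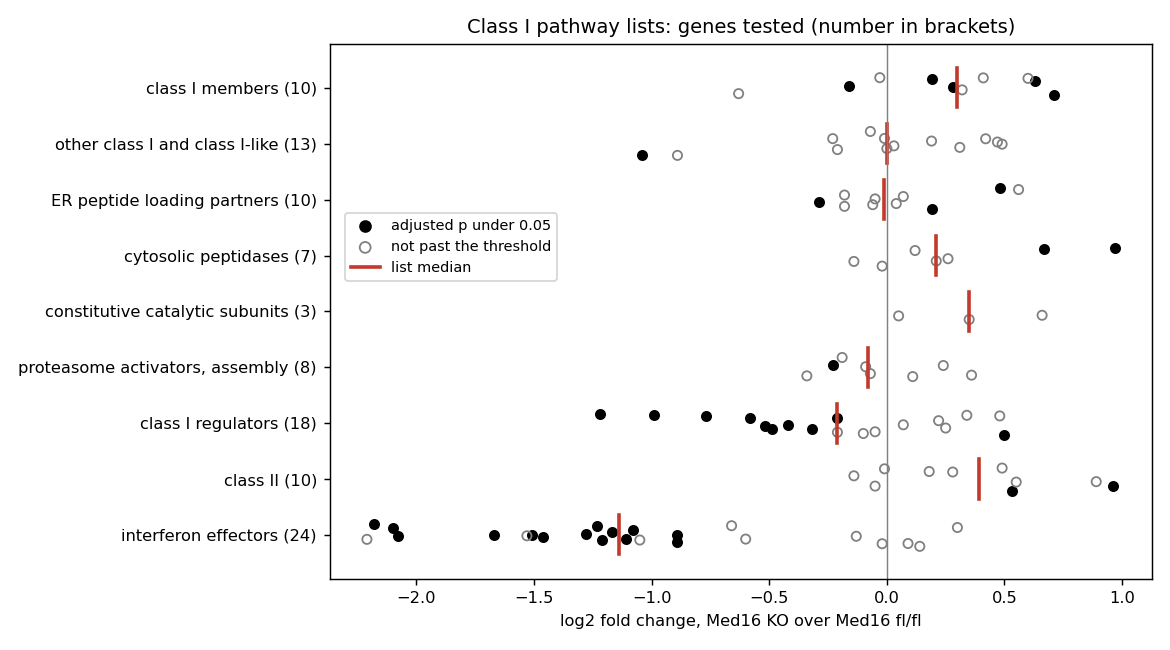
Log2 fold change of KO over fl/fl for every gene tested in 9 lists of the class I pathway and its neighbours (lines, number tested in brackets), filled where adjusted p was under 0.05, with a red bar for the list's median. The interferon effectors lie mostly below 0 with a median of -1.14, and the class I members mostly above 0 with a median of 0.30.

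Of 18 regulators of class I genes tested, 9 were called lower and 1 higher, and their median was -0.21 on the log2 scale. The lower count was 4 with the GC offset or without either fl/fl library, 5 under scaling by library size alone, and 2 with the assumed coefficient of variation. Irf9, the DNA-binding subunit of the factor ISGF3, fell to 34.3 and 42.4 CPM in KO, against 83.9 and 94.0 CPM in fl/fl (log2 fold change -1.22, SE 0.13, adjusted p = 9.2e-06). Its partner Stat2 fell to 19.5 and 21.6 CPM in KO, against 39.8 and 42.2 CPM in fl/fl (-0.99, SE 0.17, adjusted p = 6.8e-04). Nfyb, a subunit of the CCAAT-binding factor NF-Y, fell by 0.58 on the log2 scale. Irf8, a regulator of myeloid and B cells, rose to 89.5 and 89.9 CPM in KO, against 64.0 and 62.8 CPM in fl/fl (0.50, SE 0.11, adjusted p = 0.0033), a call that ended when fl/fl library 1 (0.50) or fl/fl library 2 (0.48) was left out. Suz12, a subunit of the Polycomb complex PRC2, was called at -0.21 and lost the call under 7 of 12 alternatives. Ezh2 (-0.32, SE 0.09, adjusted p = 0.028) and Eed (-0.49, SE 0.15, adjusted p = 0.035) encode other subunits of PRC2 and were also called lower. Both were named after their values were seen. The 9 lower calls thus mix different kinds of regulator.

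Of 24 interferon effectors tested, antiviral genes and GTPases that interferon induces besides the class I pathway, 14 were called lower and none higher, 10 did not pass the threshold, and their median was -1.14 on the log2 scale. The count of lower calls lay between 12 and 16 under the 12 alternatives, none was called higher under any of them, DESeq2 included, and none was higher at an unadjusted p under 0.05. Rsad2, the antiviral enzyme viperin, stood at 618 and 561 CPM in KO, against 1389 and 1381 CPM in fl/fl (log2 fold change -1.23, SE 0.05), and Oas3 at 67.1 and 83.8 CPM in KO, against 173 and 175 CPM in fl/fl. Isg15 stood at 69.1 and 77.7 CPM in KO, against 208 and 195 CPM in fl/fl, and Ifi27 at 30.1 and 26.5 CPM in KO, against 65.4 and 72.1 CPM in fl/fl. These are the libraries in which H2-K1, H2-D1, Tap2 and Psmb8 were higher in KO; the difference between the lists was not tested. Of 10 class II genes, 2 were called higher and none lower, with none lower by DESeq2 or at an unadjusted p under 0.05. The invariant chain gene Cd74 stood at 346 and 356 CPM in KO, against 246 and 239 CPM in fl/fl (0.53, SE 0.06, adjusted p = 1.1e-05). H2-DMb2 rose by 0.96 (SE 0.28), a call that ended with DESeq2, with the GC offset, with the assumed coefficient of variation and without either fl/fl library. The median of the class II list was 0.39. The class II chain genes H2-Aa, H2-Ab1 and H2-Eb1 were at -0.05, 0.18 and -0.01, were not called, and were named after their values were seen.

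Cells other than erythroid cells also carry class I, and transcripts of several were higher in the KO libraries. In bulk RNA, more cells of a type and more RNA per cell cannot be told apart. The 5 primary granule neutrophil markers summed to 4468 and 4600 CPM in KO, against 2007 and 1991 CPM in fl/fl, with all 5 called higher. The 11 late neutrophil markers summed to 16634 and 16947 CPM in KO, against 13215 and 13058 CPM in fl/fl, with 9 called higher. The 6 plasma cell markers summed to 416 and 408 CPM in KO, against 133 and 126 CPM in fl/fl, with 4 of 5 tested called higher. The 14 monocyte and macrophage markers summed to 3240 and 3286 CPM in KO, against 2394 and 2330 CPM in fl/fl, with 5 called higher and 1 lower. Lyz2 alone made up 2435 and 2481 CPM of the KO sums and 1736 and 1669 CPM of the fl/fl sums. The median log2 fold change of the 14 was 0.10. The 9 megakaryocyte and platelet markers summed to 231 and 224 CPM in KO, against 108 and 96.0 CPM in fl/fl, with 7 of 8 tested called higher and Gp1bb at 0 in all libraries.

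The 10 B cell markers summed to 267 and 276 CPM in KO, against 264 and 274 CPM in fl/fl, and the 12 T and NK cell markers to 66.4 and 69.4 CPM in KO, against 62.3 and 61.6 CPM in fl/fl. Of the B cell markers 1 of 10 was called higher, and of the 8 T and NK cell markers tested none was called by edgeR, with 1 higher at an unadjusted p under 0.05. Dendritic cell markers summed to 154 and 143 CPM in KO, against 114 and 122 CPM in fl/fl, a list that shares Irf8 and Bst2 with the lists above. Of the 6 dendritic markers tested, 1 was called higher, Irf8, and the others overlapped between genotypes. Irf8 alone made up 89.5 and 89.9 CPM of the KO sums and 64.0 and 62.8 CPM of the fl/fl sums. The part of any of these cells in the class I values was not tested.

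The genes whose levels followed most closely the mean profile of the 8 members with a mean of at least 20 CPM, which leaves out Psmb10 and Nlrc5, over the 4 libraries were Reep3, Xab2, Sptbn1, Ubl3 and Adgre5. Likeness was the Euclidean distance between centred log2 values, which ran from 0.010 to 0.029 for these 5. Adgre5, the leukocyte adhesion receptor CD97, stood at 141 and 151 CPM in KO, against 117 and 115 CPM in fl/fl. With 4 libraries, many genes share such a profile.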

How the data were processed

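Poly(A) RNA of Ter119+ bone marrow cells was measured in 2 Med16 KO and 2 Med16 fl/fl libraries. The deposited values are raw counts per gene, 1 table per library, which the authors made with HISAT2 2.1.0 and HTSeq 0.12.4 on build GRCm39, per the submitters' processing notes. Those notes also list FastQC 0.11.7, DESeq2 and HOMER. Neither the strand setting nor the annotation release is given in the sources used here. The 5 HTSeq entries that name no gene were left out. They held 35.8% to 36.7% (no feature), 23.6% to 26.4% (not uniquely aligned), 2.54% to 2.96% (ambiguous), 1.69% to 1.96% (low alignment quality) and 2.69% and 3.27% in KO against 1.05% and 0.826% in fl/fl (not aligned) of all reads.

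Counts were fitted in R 4.3.3 with edgeR 4.0.16 (filterByExpr, TMM factors 0.981 to 1.03, quasi-likelihood test, genotype as the only term) over all 13052 genes tested, two-sided, with Benjamini-Hochberg adjustment and a threshold of 0.05. The common biological coefficient of variation was 0.125 on 2 residual and 13.1 prior degrees of freedom. The SE is the size of the log2 fold change divided by the square root of F. DESeq2 1.42.0 was an alternative, beside those in the closing section. The procedure was tested on simulated counts. The changes set there were larger than the fold changes of H2-K1, H2-D1 and B2m, so that test does not cover calls that small. Lengths, GC content and overlaps came from GENCODE M21 (GRCm38), another build than that of the counts, matched by identifier for 98.4% of genes tested. Shared stretches were exact 50-base matches between its transcripts. Promoter windows came from RefSeq, the first listed where a gene had several; Tap2 and Nlrc5 are named without one. Library pairs differed by more than counting noise (chi-square per degree of freedom 6.63 within KO and 2.73 within fl/fl), so each counted as 1 replicate.

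The members and the lists were chosen with earlier results of these data known. Beside the members, the genes named in each pathway list are up to 4 called genes with the smallest p and the most abundant one, with the constitutive proteasome subunits. Psme1, Ezh2, Eed, H2-Aa, H2-Ab1 and H2-Eb1 were named outside this rule. Like genes were the 5 closest outside the pathway lists with a mean of at least 20 CPM. Nrdc, Ahsp, H2-L, H2-Q8 and H2-Q9 of the lists were not analysed here. Markers of stem and progenitor cells, eosinophils, basophils and mast cells, and stroma and endothelium were also summed: 96.2 and 72.5 CPM in KO against 55.1 and 50.9 CPM in fl/fl, 752 and 763 CPM in KO against 781 and 716 CPM in fl/fl, and 225 and 277 CPM in KO against 135 and 140 CPM in fl/fl, in that order.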

Additional observations from a re-analysis of the deposited data

How the results depend on the processing

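The calls depended on the scaling and the spread assumed. Over all genes, 1109 were called higher and 1291 lower in Med16 KO; with library size as the only scaling these were 1365 and 1055, with a GC content offset 738 and 1152, with an assumed biological coefficient of variation of 0.2 331 and 289, and without 1 library 454 to 1839 and 704 to 2172. Members called higher were 4, with 6 under library size as the only scaling, 1 under the GC content offset, 0 under the assumed coefficient of variation, and 2 to 6 without 1 library. Members called lower were 1, with 0 under library size as the only scaling, the GC content offset or the assumed coefficient, and 0 to 2 without 1 library. The members' median of 0.30 was 0.13 with the GC content offset, 0.21 with a transcript length offset, and 0.19 to 0.39 without 1 library. B2m turned to 0.01 with the GC content offset, and Tapbp to 0.03 with library size only and to 0.01 without KO library 2 (-0.09 to 0.01 without 1 library), against -0.24 with the GC content offset (adjusted p = 0.051). H2-D1 also lost its call with the length offset (0.11) and without fl/fl library 1 (0.15), and H2-K1 without fl/fl library 2 (0.26). With 1 library left out, the spread comes from the genotype that keeps 2, on the assumption that the lone library varies alike. The cause of these shifts was not tested. The immunoproteasome ratio stayed above 0 in 5 of 5 alternatives (0.13 to 0.50). Same-numbered libraries did not deviate together (r = -0.00500 across genes). With 2 libraries per genotype this cannot settle whether the numbers mark a pairing, which the labels do not state. With a replicate block, 6 members were called higher, Tap1 and Psmb9 added, and 1 lower, with 1268 and 1499 over all genes. At 36 to 101 counts per library, Nlrc5 is limited by depth.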
